A study of Drosophila melanogaster with 3 samples.

Results

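The genes described here encode the male-specific lethal (MSL) complex of Drosophila melanogaster, its 2 noncoding RNAs and its targeting factors. They are roX1, roX2, msl-2, msl-1, msl-3, mle, JIL-1, mof and CG1832, the last being the gene of Clamp. Members were taken by gene name: these 9 of 14161 genes, with 17 of 22738 transcript rows. Roles, not expression values, define the list. Whole larvae of the third instar were sequenced in 3 groups: females, males and metafemales, which carry an additional X chromosome beside diploid autosomes. Each group pools 3 biological repeats in a single deposited value per transcript, from total RNA of stocks kept at 20 degrees. The sources used here do not give the strain, the exact age or the number of larvae per repeat.

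In fruit fly males the MSL complex binds the single X chromosome and raises its transcription. The scaffold MSL1 and the ubiquitin ligase MSL2 nucleate the complex, MSL3 reads a chromatin mark, the helicase MLE remodels the roX RNAs, and MOF acetylates a histone. In females the RNA-binding protein Sxl, encoded by Sxl, blocks splicing and translation of msl-2 transcripts, so the complex does not form. The noncoding RNAs roX1 and roX2 are known as male-specific and largely redundant. Clamp is a zinc finger protein that binds GA repeats on the X, and JIL-1 is a histone kinase enriched on the male X.

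Values are counts per 1000000 transcript counts (CPM). The steps between the lowest values give library totals of 65.6 to 89.2 M transcript counts in females, 31.6 to 92.4 M in males and 69.0 to 112 M in metafemales. A pooled value then has the counting error of 226, 169 and 269 M counts. Intervals in brackets are 95% counting intervals (exact binomial) at that depth. They leave out variation among larvae, and without molecular identifiers a read is no independent molecule. With 1 pooled value per group no difference has a replicate check, except for roX2, where library counts could be recovered. Calls of higher or lower mean a difference of at least 2-fold on the scale log2(value + 1 CPM). This scale understates changes of low genes, so plain ratios are given too. In the groups' tissue markers, fat body genes summed to 26238 CPM in females, 26078 in males and 31744 in metafemales, but the members went both ways. From females to metafemales the storage protein genes Lsp1alpha and Lsp1beta stood at 474 and 2700 and at 4342 and 17148 CPM, while Fbp1 stood at 6045 and 1108 and Lsp2 at 9444 and 5064. Salivary gland glue genes summed to 10338, 15087 and 1799 CPM, and yolk genes to 15.9, 1.75 and 3.88 CPM, of which Yp2 had 12.6 in females and 0.594 in metafemales. The parts of tissue makeup and of exact age within the third instar in the results were not tested. In whole larvae fewer cells of a type and less RNA per cell cannot be told apart.

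Males carried far more of both roX RNAs and more msl-2 than females, while the other 6 members lay within 2-fold. Called higher were 3 of 9 members and called lower 0, against a background of 15.3% of 10942 genes higher and 1.96% lower. The median log2 fold change was 0.40 for the members and -0.04 for all genes.

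The RNA roX1 had 20.7 CPM in females, 388 in males and 17.7 in metafemales. It was 18.8-fold higher in males than in females (18.2 to 19.3). Metafemales stood close to females, at a ratio of 0.858 (0.823 to 0.893), and scaling decided the sign of that difference. As deposited the log2 change was -0.21, and it was 0.18 with median-of-ratios scaling and 0.23 with autosomal scaling. Thus the roX1 row was readily detected in both groups that are not male. The gene ec, which overlaps roX1 on the opposite strand, had 42.7 CPM in females and 18.4 in metafemales. Whether ec reads add to these roX1 values was not tested.

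The RNA roX2 had 0.181 CPM in females, 50.5 in males and 0.0339 in metafemales. Its male to female ratio was 279 (204.7 to 388), a larger ratio than that of roX1, whose interval it did not touch. Without the female library of least depth (its counts follow) this ratio was 626, and it was 213 and 225 without each of the others. Per kilobase of the longest annotated transcript, roX1 had 80.3 CPM per kb in males and roX2 36.9, a 2.18-fold difference in level. In females the same per-kilobase levels were 4.28 and 0.132, a 32.4-fold difference, and in metafemales they were 3.67 and 0.0248. The balance of the pair therefore shifted towards roX1 in both groups that are not male. These lengths come from an annotation of another release, in which roX2 transcripts range from 0.522 to 1.37 kb, so the ratios are approximate. With the shortest roX2 length beside the longest of roX1, roX2 would stand above roX1 in males. With the shortest length of both it would not.

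**Figure D1:**
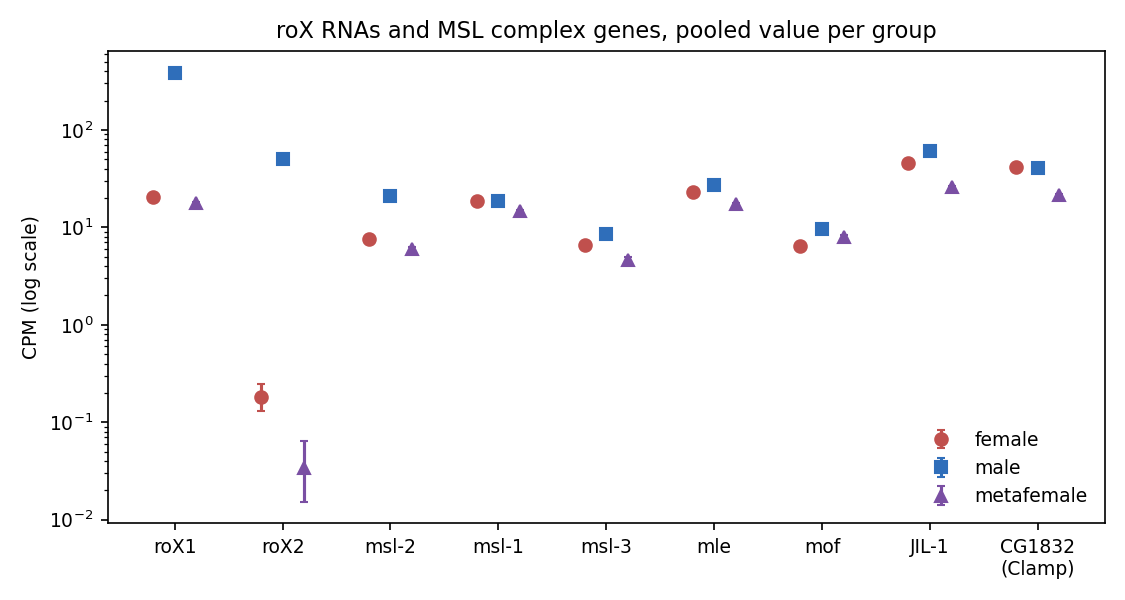
Level of each gene in CPM on a log axis, 1 pooled value per group (circles female, squares male, triangles metafemale) with 95% counting intervals, most of them smaller than the symbols. Both roX RNAs and msl-2 stand highest in males, and roX2 is below 1 CPM in both other groups.

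In females roX2 was so low that its pooled value could be written in 1 way only as whole counts of 3 libraries. The female libraries held 6 counts of 89.2 M, 7 of 74.4 M and 25 of 65.6 M. The levels were 0.0672, 0.0941 and 0.381 CPM, with a mean of 0.181 ± 0.174 (SD, n = 3). So 65.8% of the 38 female counts came from the library of least depth, which held 28.6% of the female depth. The metafemale libraries held 3 counts of 112 M, 6 of 99.6 M and 1 of 69.0 M, or 0.0268, 0.0602 and 0.0145 CPM (mean 0.0339 ± 0.0237, SD, n = 3). As deposited the lowest female library lay above the highest metafemale one, so the groups did not overlap. Both of these libraries held 6 counts, and their counting intervals (0.0247 to 0.146 and 0.0221 to 0.131 CPM) overlapped. Median-of-ratios and autosomal scaling raise metafemales against females by 0.41 and 0.46 (log2), more than this gap. They were not applied to single libraries, so whether the groups stay apart with them was not tested.

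The pooled ratio of females to metafemales was 5.34 (2.6 to 12.7). On levels as deposited, an exact two-sided permutation test of 3 against 3 libraries gave p = 0.10, the smallest p this design allows. The same exact permutation test with 1 library left out gave p = 0.20 in each case, the smallest that 2 against 3 libraries allow. Without the female library of least depth the ratio was 2.38, and without the metafemale library of middle depth it was 8.75. Uneven library shares of this size were uncommon among female values of like count. Of 438 female transcript values with 30 to 50 recovered counts, 13 had at least as large a share in the library of least depth, where the median share was 23.4%. In metafemales, values of 8 to 12 counts lay mostly in the deepest library, with a median share of 62.5% against 39.9% of the depth, whereas roX2 had 3 of its 10 counts there. The shorter-counted roX2 row had 6, 5 and 24 female and 1, 6 and 1 metafemale counts, in no library more than the longer one.

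**Figure D2:**
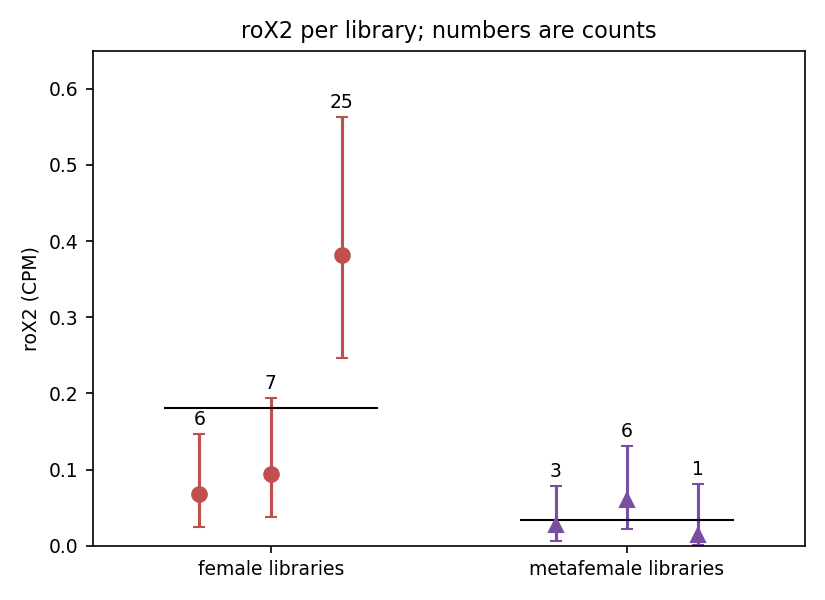
Level of roX2 in CPM in each of the 3 female and 3 metafemale libraries, ordered by depth from left to right, with 95% exact counting intervals, the count printed above and a line at the group mean. A single female library, with 25 counts, stands far above the other libraries.

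Other male-biased RNAs were present at trace level in females too. Genes of the Y chromosome, which females lack, gave 40 female counts over 7 genes found of 8 listed, with 14, 8 and 18 in the libraries from deepest to least deep. Of these 45.0% lay in the library of least depth. The dynein heavy chain genes kl-2, kl-3 and kl-5 had 11, 14 and 10 of them, and ARY had 0. Metafemales had 0 counts of all 7 genes, and 3 counts, the limit taken for a count of 0, are 0.0112 CPM. In testis genes the 6 members with recovered female counts had 44, 24 and 41 counts, 37.6% of them in the library of least depth. Counts could be recovered up to 0.2 CPM only, so testis genes with higher female levels are left out. Metafemales, without Y-linked counts, also had testis counts. The 11 members recovered there, not the same set, had 120, 70 and 30, with 13.6% in the library of least depth.

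Relative to males, roX2 stood at 0.358% in females (0.258 to 0.489) and roX1 at 5.33% (5.17 to 5.49). Without the female library of least depth roX2 stood at 0.16%, so its place among the genes that follow, each taken over all 3 libraries, rests on that library. The female levels of Y-linked genes ran from 0% to 3.83% of the male level, so roX1 lay above all 7 and roX2 below 6 of them. Testis genes ran from 0.250% to 39.0% with a median of 2.07%. Of these 15 genes 5 lay below roX2 and 3 above roX1, namely mia, topi and bam. Sperm aminopeptidase genes lay near roX2: CG6372 was at 0.358% of the male level, CG32064 at 0.281% and CG13340 at 0.262%. In metafemales roX2 stood at 0.067% (0.0303 to 0.126) and roX1 at 4.57% (4.44 to 4.71), beside 0.0427% for CG6372 and a testis median of 0.403%. The summed testis level was 9.64 CPM in females, 1150.3 in males and 4.28 in metafemales. Whether male material in the female libraries has a part in the female roX2 value was not tested.

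**Figure D3:**
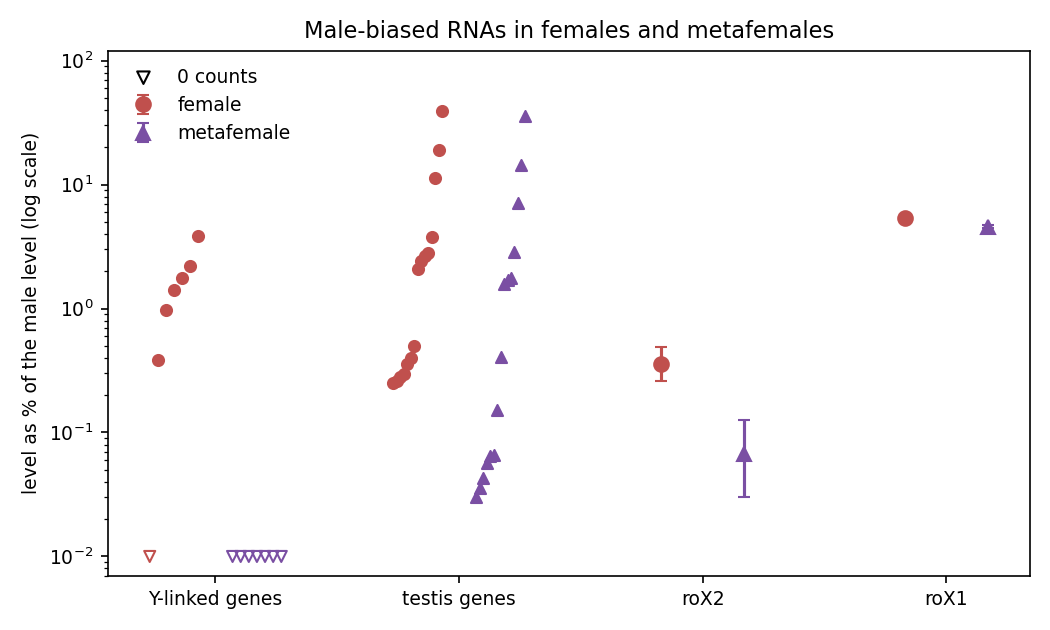
Female (circles) and metafemale (triangles) levels as a percentage of the male level, on a log axis, for 7 Y-linked genes, 15 testis genes, roX2 and roX1. Bars on the roX points are 95% counting intervals and open triangles at the bottom mark genes with 0 counts. Female roX2, at 0.358% over all 3 libraries, stands among the testis genes (0.16% without the library of least depth, not drawn), and roX1 stays near 5% in both groups.

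The gene msl-2, whose product limits assembly of the complex to males, had 7.62 CPM in females, 20.8 in males and 6.005 in metafemales. It was 2.73-fold higher in males than in females (2.58 to 2.89) and 3.46-fold higher than in metafemales (3.27 to 3.68). Both non-male groups still carried much of the transcript, at 36.6% of the male level in females and 28.9% in metafemales. Among autosomal genes 85.5% had a lower male to female change than msl-2. Against females, metafemale msl-2 (log2 -0.30 as deposited, but 0.06 and 0.10 with the other scalings) lay almost on the autosomal median of -0.29.

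The other core subunits differed less. The scaffold gene msl-1 had 18.7 CPM in both females and males (ratio 1.002, 0.957 to 1.05) and 14.7 in metafemales. The reader gene msl-3 had 6.55, 8.58 and 4.66 CPM in females, males and metafemales. Its male to female ratio was 1.31 (1.22 to 1.41). The helicase gene mle had 22.9, 27.5 and 17.4 CPM, with a male to female ratio of 1.20 (1.16 to 1.25). As deposited all 3 were lowest in metafemales. For msl-1 and mle this place against females turned with both other scalings, and for msl-1 also against males.

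The acetyltransferase gene mof is X-linked, and was as deposited the only protein-coding member lowest in females. It had 6.45 CPM in females, 9.53 in males and 8.02 in metafemales. Males with a single X thus had 1.48 times the female level (1.38 to 1.59), and metafemales 1.24 times (1.16 to 1.33). The median X-linked gene changed by -0.19 (log2) in males and 0.03 in metafemales, against 0.50 and 0.28 for mof. Of X-linked genes 84.6% lay below mof in males and 69.4% in metafemales. The sign of its difference between metafemales and males (log2 -0.22) turned with scaling, to 0.18 with both others.

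As deposited, Clamp and JIL-1 gave the largest differences between metafemales and females among the members apart from roX2. With both other scalings that of mof was larger (log2 0.64 and 0.69). Clamp (CG1832) had 42.0 CPM in females, 40.7 in males and 21.6 in metafemales. Its female and male levels differed by no more than counting error (1.03, 0.9996 to 1.06), and metafemales had 0.514 of the female level (0.497 to 0.531). JIL-1 had 46.3, 61.3 and 26.1 CPM. It was 1.32-fold higher in males than in females (1.29 to 1.36), and metafemales had 0.564 of the female level (0.547 to 0.582). In metafemales against females the log2 changes of -0.93 and -0.80 lay below the autosomal median by 0.64 and 0.51. Only 14.8% of autosomal genes lay below Clamp and 19.6% below JIL-1. Both stayed lower with median-of-ratios scaling (-0.53 and -0.40) and autosomal scaling (-0.49 and -0.36).

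Over all members, metafemales against females had 0 of 9 called higher and 0 called lower, where 4.81% of all genes were called higher and 10.9% lower. The added 1 CPM outweighs the roX2 level in both groups. With 0.1 CPM added in place of 1, roX2 was called lower, at log2 -1.07, close to the 2-fold line. This call was not repeated with other scalings or without the female library of least depth. Without that library the plain ratio of females to metafemales fell from 5.34 to 2.38. As deposited all 6 autosomal members were lower, but msl-1, msl-2 and mle turned positive with both other scalings, and the median of the 6 was -0.40 against -0.29 for autosomal genes. The background split turned as well, from 526 genes higher and 1188 lower to 975 and 479 with median-of-ratios scaling and 1040 and 454 with autosomal scaling. These scalings moved the ratio of the groups by 0.41 and 0.46 (log2), while male to female ratios moved by less than 0.1 (-0.04 and 0.01).

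**Figure D4:**
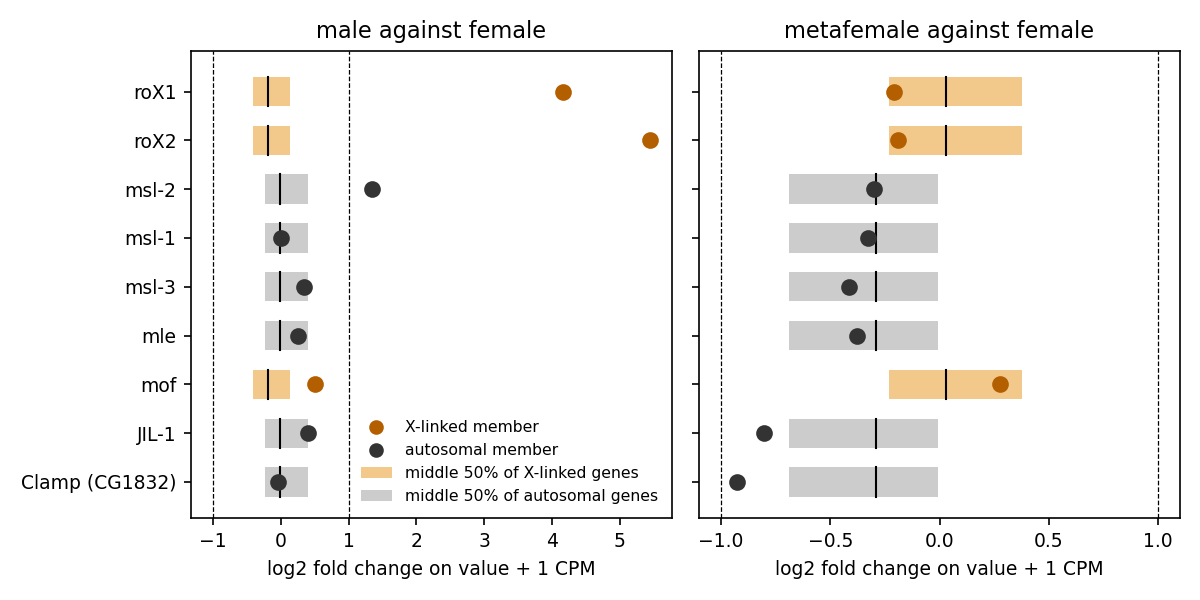
Log2 fold change on value + 1 CPM of each member (points) in males against females and metafemales against females, over the middle 50% of genes of its chromosome class (bars) and their median (line), with dashed lines at 2-fold. In males roX1, roX2 and msl-2 lie beyond 2-fold, and in metafemales JIL-1 and Clamp lie below the autosomal bar.

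Metafemales against males had 4 of 9 members called lower and 0 higher, beside 28.6% and 8.61% of all genes. They were roX1, roX2, msl-2 and JIL-1. The roX ratios were 21.9 (21.2 to 22.5) for roX1 and 1492 for roX2, whose 10 metafemale counts leave an interval of 794 to 3301. JIL-1 was 2.35-fold lower than in males (2.28 to 2.42), but within 2-fold with both other scalings (log2 -0.76 with each). This comparison shares its groups with the others and is no separate evidence.

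Per kilobase, the transcript of the limiting subunit changed place among the protein-coding members. In females msl-2 had 1.98 CPM per kb, the lowest of the 7 but near mof at 2.14 (a ratio of 0.927). No counting interval was taken for the order of these 2 genes. Above them were msl-3 at 3.33, msl-1 at 3.72, mle at 5.64, JIL-1 at 7.07 and Clamp at 14.5. In males mof (3.16), msl-1 (3.73) and msl-3 (4.36) lay below msl-2 (5.41 CPM per kb). The level of msl-1 was 1.88 times that of msl-2 in females, 0.689 times in males and 1.87 times in metafemales. Clamp was the highest in each group, at 14.1 CPM per kb in males and 7.45 in metafemales. The spread of gene levels between libraries was not measured, and annotated lengths may not match those counted.

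Transcript rows of a gene were nearly copies of each other. In each of the 7 genes with several rows no lower row exceeded the top row in any group, as when a read counts for each transcript it overlaps. Leaving roX2 aside, the lower row of msl-3 (NM_168191) varied most between groups. It held 87.0% of the top row (NM_079227) in females (85.2 to 88.7), 90.5% in males (88.8 to 91.9) and 77.7% in metafemales (75.3 to 80.0). The metafemale interval lay apart from both others. For JIL-1 the share was 92.9% in females and metafemales and 94.8% in males (94.4 to 95.3). For roX2 it was 87.4% in males (86.7 to 88.1), 35 of 38 counts in females and 8 of 10 in metafemales, whose intervals hold the male value. Both msl-2 rows differed by less than 2% in each group, with the lower at 98.1% in females, 98.7% in males and 98.1% in metafemales, so the rows do not separate forms of the transcript.

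**Figure D5:**
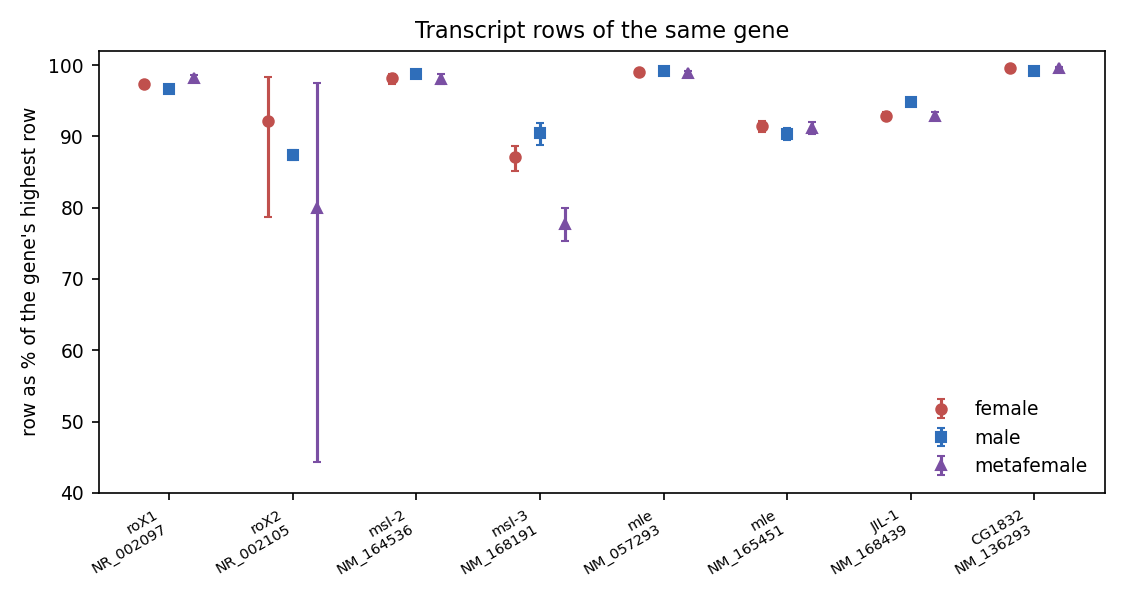
Each lower transcript row as a percentage of the highest row of its gene in females (circles), males (squares) and metafemales (triangles), with 95% exact counting intervals. The axis starts at 40%. The msl-3 row separates metafemales, at 77.7%, from females and males, and the wide roX2 intervals rest on 38 and 10 counts.

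Neighbours with overlapping gene spans could share reads with some members if counting ignored strand, on which the sources used here are silent. Whether exons overlap was not checked. In the Release 6 annotation roX1 overlaps ec, msl-3 overlaps form3 and Clamp overlaps CG42748, each on the opposite strand. Levels of ec were 42.7 CPM in females, 40.6 in males and 18.4 in metafemales, unlike those of roX1. For form3 they were 18.9, 15.4 and 36.3 CPM, so form3 was highest in metafemales, where msl-3 was lowest and its rows differed most. For CG42748 they were 65.5, 59.8 and 47.8 CPM. On its own strand msl-2 holds mir-4971 and a further annotated feature, for which no values were used here. The part of these overlaps in the members' values was not tested.

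The 32 genes listed as acting on or beside the complex include mtt, which is not a known partner of it. Of the 32, 1 was called lower in males against females and 0 higher, beside 1.96% and 15.3% of all genes. In metafemales against females 2 were called lower and 0 higher, beside 10.9% and 4.81%. Their medians were -0.09 and -0.45, beside -0.04 and -0.22 for all genes. The gene called lower in males was Sxl, the X-linked switch that represses msl-2 in females. It had 103 CPM in females, 27.3 in males and 86.4 in metafemales, so males had 0.264 of the female level (0.256 to 0.273) and metafemales 0.837 (0.822 to 0.852). In the files Sxl shares its values with CG14425, now part of the same gene. Unr, whose protein represses msl-2 translation together with Sxl, had 54.1, 44.8 and 40.6 CPM.

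Called lower in metafemales against females were snf, a splicing factor gene acting on Sxl (41.0 and 19.5 CPM), and the gene of the heterochromatin protein HP1a (93.7 and 31.8 CPM). With both other scalings the HP1a gene alone passed. The 7 genes listed as partners of MOF in the NSL complex and its surroundings were all within 2-fold in both comparisons. Their medians were 0.01 in males and -0.26 in metafemales. Both medians count mtt (2.41, 2.01 and 1.905 CPM in females, males and metafemales), which is not a known partner of MOF. The GA-repeat binding factor genes Trl (57.5, 60.1 and 36.5 CPM in females, males and metafemales) and psq (68.1, 57.9 and 40.1 CPM) were lowest in metafemales as deposited, as were 27 of the 32 listed genes. As deposited a low place in metafemales was common: of all genes 28.7% were higher there than in females and 32.1% higher than in males. The share of all genes lowest in metafemales was not counted. Median-of-ratios and autosomal scaling moved the median of all genes against females from -0.22 to 0.01 and 0.04. Against males it moved from -0.40 to -0.01 with each. Against females the log2 changes of Trl and psq were -0.64 and -0.75, and the lower quartile of autosomal genes was -0.69. In metafemales against males 3 listed genes were lower, the HP1a gene, the methyltransferase gene ash1 (31.3 CPM in males and 14.2 in metafemales) and the remodeller gene Iswi (50.8 and 20.0), beside 28.6% of all genes. With both other scalings ash1 and Iswi were within 2-fold. Sxl was higher, beside 8.61% of all genes, and its call ended with sums over transcripts.

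Profiles over the 3 groups were compared by distance of centred log2(value + 1 CPM). Those most like that of roX1 were the profiles of CG7202 (0.04), Hsc70-2 (0.05) and CG18568 (0.06). CG7202 had 0.155 CPM in females, 20.4 in males and 0.0354 in metafemales, Hsc70-2 had 1.31, 40.5 and 1.08, and CG18568 had 0.226, 21.3 and 0.117. The added 1 CPM outweighs levels below it. In plain ratios of males to both other groups, all 3 genes stood higher than roX1. Profiles nearest to that of msl-2 were those of isopeptidase-T-3 (now Kpc2, 0.01), CG1134 (now Mul1, 0.04) and bora (0.06). Kpc2 had 4.70, 13.6 and 3.69 CPM.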

How the data were processed

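Whole larvae were profiled by RNA-seq, with TRIzol extraction and TruSeq RNA libraries per the labels. Alignment used TopHat, counting HTSeq, on build dm3, per the submitters' processing notes. Versions, annotation and strand setting: not given in the sources used here. As deposited, a value is the fraction of all transcript counts of its group, over 3698 X-linked and 19040 autosomal transcript rows whose columns together sum to 1, and was multiplied here by 1000000. Each deposited column holds the 3 biological repeats of its group.

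Values below 0.05 CPM were sums of whole multiples of 3 steps per column in all such rows (1749 in females, 981 in males, 2170 in metafemales), within the rounding of 6 deposited digits plus a relative 1e-07. A column was read as the mean of count over total in 3 libraries. Up to 0.2 CPM, 98.1%, 97.9% and 96.6% of values had a unique set of counts. The method was tested on simulated data. Totals and counts per library are inferred, and libraries are named by depth.

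The row with the highest mean stood for its gene. Genes averaging 1 CPM or more formed the background (10942 genes, 1734 X-linked). Named were all members, listed partners called in any comparison, Sxl, Unr and the 3 nearest profiles of roX1 and msl-2. Other listed genes are named only to give values of their groups, or for mtt to mark its place in the list. They were chosen after their values were seen, as were examples among markers and overlapping genes. Members and lists were chosen with earlier results of these data known. The supplied annotations (Release 6) served for symbols, chromosome arms, transcript lengths and overlaps only. The planned promoter motif search was not run. Alternatives were 0.1 or no added CPM, median-of-ratios and autosomal scaling, sums over rows, other filters and leaving out a library. Python 3.11.15, numpy 2.4.6, scipy 1.17.1, pandas 2.3.3 and matplotlib 3.10.9 were used.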

Additional observations from a re-analysis of the deposited data

How the results depend on the processing

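The 3 members called higher in males (roX1, roX2 and msl-2) were called with 0.1 CPM added, both other scalings, sums over transcripts and the filter on members. With 0.1 CPM added 1 member, roX2, was lower in metafemales against females (log2 -1.07, close to the 2-fold line), in place of 0. Of the listed partners, 1 in place of 2 was lower in metafemales against females with either scaling, and 1 (the HP1a gene) in place of 3 against males. With sums over transcripts 0 in place of 1 (Sxl) was higher against males. Leaving out 1 library moved the roX2 ratio of females to metafemales between 2.38 and 8.75. With 2 against 3 libraries the smallest exact p is 0.20. Without each female library the male to female ratio of roX2, an alternative added after seeing the data, lay between 213 and 626. Of 27 fold changes, 7 turned sign under median-of-ratios scaling and 6 under the autosomal one, none of them called. Among genes averaging 10 CPM or more the background counts were 315 higher and 141 lower in males (1670 and 214 from 1 CPM up), 329 and 824 in metafemales against females (526 and 1188), and 619 and 1215 against males (942 and 3126). Scaling moved the last pair to 1622 and 2267 (median-of-ratios) and 1645 and 2284 (autosomal). No paired analysis was possible because each group is 1 pooled column and recovered libraries carry no replicate number.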
